A study of Mus musculus with 3 samples.

Results

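The conjugating enzymes of 3 families were followed in cells that the labels call hepatocyte-like. These were the UDP-glucuronosyltransferases (UGT), the cytosolic sulfotransferases (SULT) and the soluble glutathione transferases (GST). Members were chosen by gene symbol alone, with no measured value in the rule: symbols beginning Ugt1a, Ugt2a, Ugt3a, Ugt2b, Sult and a digit, or Gst with the class letter a, k, m, o, p or t and a digit, together with Gstz1. The array named 55 of them through 75 probes, out of 20577 named genes: 14 UGT, 20 SULT and 21 GST genes. Another 11 family genes listed by RefSeq had no probe named here and were not analysed: Ugt1a1, Ugt1a2, Ugt1a5, Ugt1a7c, Ugt1a8, Ugt1a9, Ugt2a2, Sult2a5, Sult2a-ps2, Gsta1 and Gstm2-ps1.

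These enzymes make lipophilic hormones, bile acids, drugs and toxins soluble enough to leave the cell. UGTs sit in the endoplasmic reticulum and add glucuronic acid from UDP-glucuronic acid, SULTs in the cytosol add sulfate from the donor PAPS, and GSTs join glutathione to reactive electrophiles. The adult liver is the main site of all 3 reactions, while some GST classes are present in nearly every cell. In liver the genes are driven by hepatocyte factors such as HNF4 and by sensors of foreign compounds such as PXR, CAR, AhR and NRF2.

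Each of the 3 groups was read on 1 one-colour array, from RNA that the series' design text gives as a pool of 5 samples. MF were primary fibroblasts of female mouse spleens remodelled with SiO2, given the control lentivirus LV-NC. iHep were fibroblasts of that kind given LV-3TF, a lentivirus whose 3 factors the labels do not name, and were harvested, as MF were, at 14 days after transduction. PH were hepatocytes freshly taken from female mice, a positive control that was not cultured alongside. The labels give no strain, age, or number of separate transductions, and their extraction protocol describes a blood RNA kit with globin removal. With 1 array per group no test, SD or p-value exists, and "higher" and "lower" below describe these arrays only.

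A level is log2 of the spot signal minus the array's 75th percentile, so level 0 is a gene at that percentile. MF was the dimmest array, with this percentile at an intensity of 544, against 3752 for iHep and 2081 for PH. Replicate spots gave a technical SD of 0.13 to 0.14 for a log2 difference, against an SD of 0.84 to 1.11 between different probes of a gene, so a 2-fold difference lies outside spot noise but not outside probe disagreement. A gene was counted as measured on an array where a probe was well above background. Where that held on 1 side of a comparison alone, the difference is a bound, written "at least N-fold", and where it held on neither, no fold was formed. MF was scanned apart from iHep and PH, so scan and cell type cannot be told apart where MF is 1 side.

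The UGT2 genes carried the widest contrasts, and most of them lie side by side. In the RefSeq gene table Ugt2b34, Ugt2b1, Ugt2b35, Ugt2b36, Ugt2b5, Ugt2b37, Ugt2a3, Ugt2b38, Ugt2a1, Ugt2a2, Sult1b1, Sult1d1 and Sult1e1 follow each other on mouse chromosome 5 with 0 other coding genes between. Of the UGT2B genes in this block 1, Ugt2b34, lay above level 0 in iHep, so the 100 bases before the annotated start of each UGT2B gene are set out here for comparison (RefSeq, GRCm38.p6, each 5′ to 3′ on the strand of its gene). Capitals mark the 13-base word of Ugt2b34 that a search found best kept in the other 6 promoters, GTTANANNTTAAC, with 10 of its 13 bases the same in all 7.
Ugt2b34 (chr5:86906938-86907037, minus strand): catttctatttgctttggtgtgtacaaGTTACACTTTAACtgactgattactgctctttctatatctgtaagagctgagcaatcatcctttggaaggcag
Ugt2b1 (chr5:86926504-86926603, minus strand): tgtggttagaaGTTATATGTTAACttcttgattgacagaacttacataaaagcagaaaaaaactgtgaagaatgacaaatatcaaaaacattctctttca
Ugt2b35 (chr5:87000760-87000859, plus strand): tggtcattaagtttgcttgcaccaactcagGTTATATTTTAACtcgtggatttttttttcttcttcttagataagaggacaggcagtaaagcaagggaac
Ugt2b36 (chr5:87092556-87092655, minus strand): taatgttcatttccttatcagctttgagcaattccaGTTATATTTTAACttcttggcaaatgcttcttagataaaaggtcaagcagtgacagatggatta
Ugt2b5 (chr5:87140341-87140440, minus strand): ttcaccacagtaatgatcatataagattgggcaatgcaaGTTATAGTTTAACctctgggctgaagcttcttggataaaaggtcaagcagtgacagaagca
Ugt2b37 (chr5:87254789-87254888, minus strand): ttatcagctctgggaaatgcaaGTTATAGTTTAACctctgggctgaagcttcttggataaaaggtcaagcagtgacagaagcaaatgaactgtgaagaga
Ugt2b38 (chr5:87424204-87424303, minus strand): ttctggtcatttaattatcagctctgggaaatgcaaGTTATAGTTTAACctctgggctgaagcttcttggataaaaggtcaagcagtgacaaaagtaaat
The word begins 61 to 89 bases before the start in these 7 genes. It was found after the sequences were seen, so its presence in all 7 is how it was chosen. On either strand it occurred in 28 of 32851 promoters, 0.0852%, within 250 bases before the start. Outside UGT2B, 1 further member promoter held it, that of Ugt3a1, as GTTAAAAATTAAC beginning 130 bases before the start. The match is a description of letters and shows no binding.

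Over the whole 100 bases, the promoter of Ugt2b34 was 49.1% to 51.4% identical to those of the other UGT2B genes in pairwise alignment. Ugt2b5, Ugt2b36, Ugt2b37 and Ugt2b38 were 63.2% to 80.8% identical among themselves. A forkhead site (TGTTTAC, either strand) lay within 250 bases before the start of Ugt2b35, Ugt2b37 and Ugt2b38 and of no other member. That is 5.17% of 58 member promoters against 3.17% of all promoters. The 3 promoters were 53.5% to 73.7% identical to each other over 100 bases, so they are not independent. The word was present in Ugt2b34 and equally in the 6 UGT2B genes whose iHep readings were -4.97 or lower.

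Well above background were 31 of the 55 members in MF, 41 in iHep and 43 in PH. Among all 20577 named genes detection rose in the same order, from 72.9% for MF to 79.5% for iHep and 84.5% for PH. How far the member counts follow this array-wide rise was not tested. A set of 30 was measured on all 3 arrays, 6 in PH alone (Ugt2b1, Ugt2b5, Ugt2b35, Ugt2b36, Ugt3a1 and Sult2a7) and 3 in iHep alone (Sult6b1, Sult6b2 and Gstt4). By family, UGT went from 7 of 14 in MF to 9 in iHep and 14 in PH, SULT from 5 of 20 to 11 and 9, and GST from 19 of 21 to 21 and 20. The remaining 8, all sulfotransferases, were on no array: Sult1c1, Sult2a1, Sult2a2, Sult2a3, Sult2a4, Sult2a6, Sult3a1 and Sult3a2. Nearly all GST genes were thus read in every group, while 6 of the 9 UGT2 genes were not read in MF.

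**Figure D1:**
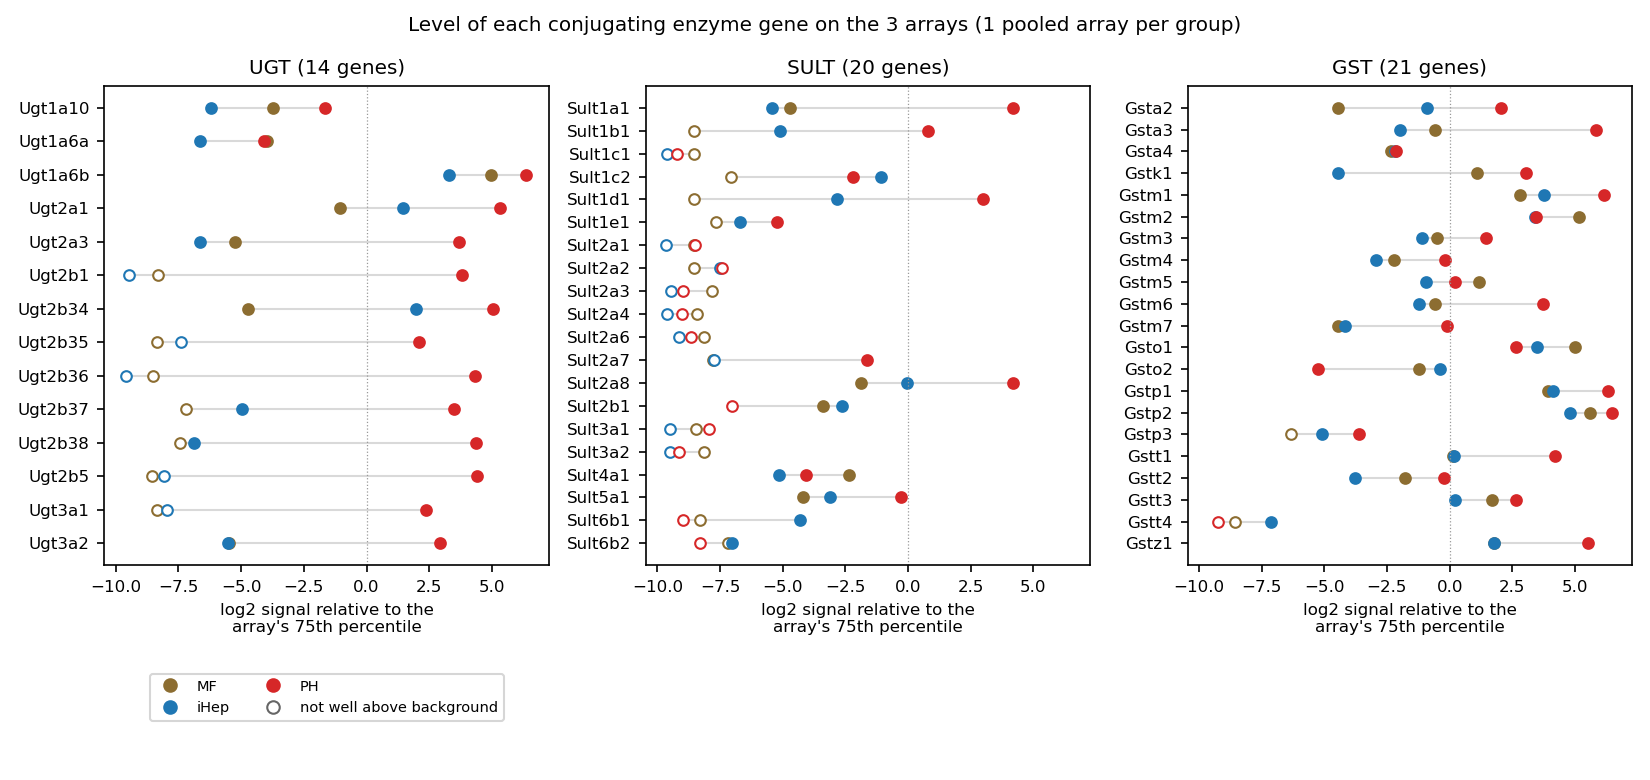
Level of each of the 55 member genes (log2 signal relative to the array's 75th percentile, x axis) on the MF, iHep and PH arrays, by family, with 1 pooled array per group and open circles for readings not well above background. In all 14 UGT genes the PH point lies at least 2-fold above the iHep point, while in the GST panel many MF and iHep points lie close together.

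PH against MF gives the distance between the starting cell and the liver cell. Of the 44 members read in MF, PH or both, 34 were at least 2-fold higher in PH and 5 lower, where 30.7% of all 17779 genes compared were higher and 25.3% lower. At 8-fold, 25 members were higher, against 10.7% of all genes, and 2 were lower, against 5.42%. The median log2 difference was 10.11 for UGT (8.79 with dim readings held at their bounds), 5.49 for SULT (4.39) and 2.0 for GST, beside 0.12 for all genes. With normexp, a background correction that models background as noise on top of the raw median signal, the medians were 6.48 for UGT, 2.20 for SULT and 1.78 for GST. RNA from a mixed culture cannot tell fewer hepatocyte-like cells from less RNA in each.

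iHep against MF sets cells given the 3-factor virus beside cells given the control virus. The 2 arrays also differ in scan and in macrophage genes, whose summed signal had a log2 level of 6.35 in MF and -0.11 in iHep. Virus, scan and cell make-up cannot be told apart here. Of 41 members, 11 lay past 2-fold higher in iHep and 12 past 2-fold lower, beside 19.8% and 23.3% of all 17165 genes. Past 8-fold, 4 were higher, beside 2.66% of all genes, and 1 lower, beside 6.74%. UGT had 3 higher and 4 lower of 9, SULT 6 higher and 1 lower of 11, and GST 2 higher and 7 lower of 21. The medians were -0.06 for UGT, 1.07 for SULT and -0.58 for GST, beside 0.09 for all genes. The SULT direction depended on the processing: with normexp its median was -0.61 and 2 genes were higher and 2 lower. The normexp setting also adds an offset of 50 to each signal. The 75th percentile was at 544 for MF and 3752 for iHep. Whether the correction or the offset moved the SULT median was not tested. The normexp medians of the other families were -1.67 for UGT and -0.90 for GST.

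iHep against PH gives the remaining distance to the liver cell. Of 47 members 38 were lower by 2-fold or more in iHep and 4 higher, beside 35.8% and 23.2% of all 17996 genes. All 14 UGT genes were lower, 13 of them at least 8-fold, where 12.9% of all genes were that far lower. At least 8-fold higher were 2 members, beside 4.53% of all genes. SULT had 8 lower and 3 higher of 12, and GST 16 lower and 1 higher of 21. The medians were -8.98 for UGT, -2.15 for SULT and -2.41 for GST, beside -0.30 for all genes. Since iHep and MF are each set against PH here, the 2 comparisons share the PH array.

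**Figure D2:**
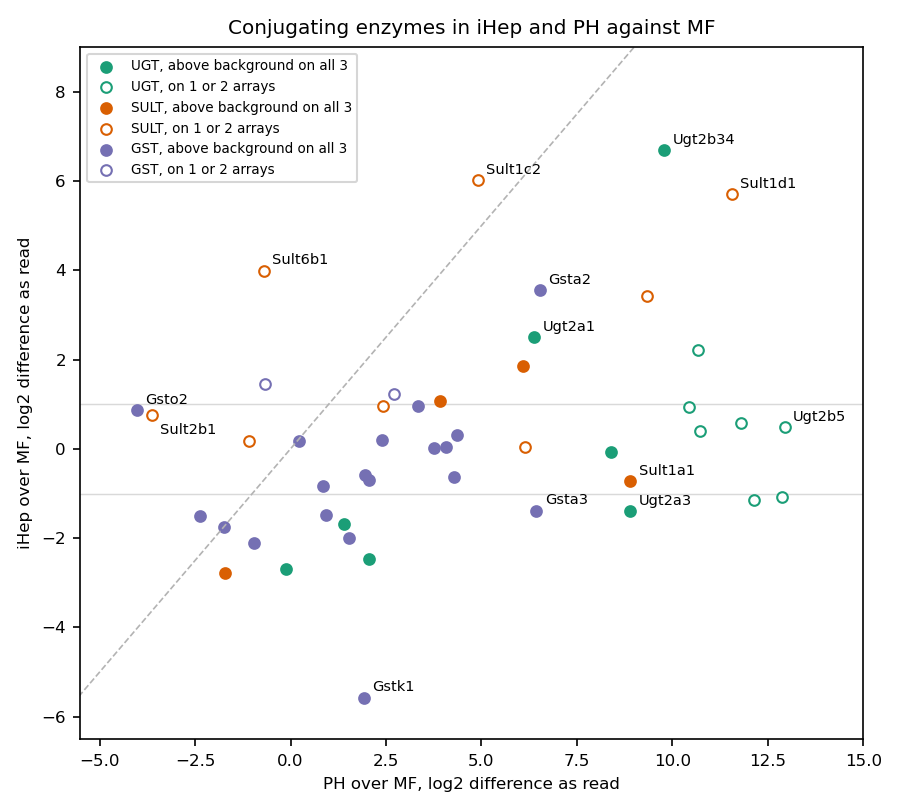
Log2 difference of iHep over MF (y axis) against PH over MF (x axis) for each member measured on at least 1 array, with filled points for genes measured on all 3 and open points for readings below background on 1 or 2. Both axes share the MF array, grey lines mark 2-fold, and on the dashed diagonal iHep equals PH: Ugt2b34, Sult1d1, Sult1c2 and Gsta2 stand high on the y axis and Gstk1 lies far below 0.

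The 25 members past 8-fold in PH over MF were 11 UGT, 7 SULT and 7 GST genes. With normexp Sult1c2, Sult2a7, Sult5a1 and Gstm7 fell under 8-fold, at 2.17-fold, 3.65-fold, 5.76-fold and 6.81-fold. In iHep, 19 of the 25 were well above background, 9 were at least 2-fold higher than in MF and 2 were lower. Sult1c2 was the 1 member among them not lower than in PH. The other 24 were at least 2-fold lower than in PH, 21 at least 8-fold and 10 at least 256-fold, and 9 of those 10 were UGT genes. These members were picked by a high PH reading beside a low MF one and are then set against those same arrays, so the comparisons are not independent. For the counts of 19, 9 and 2, no share over all genes picked this way was formed. Among all 1911 genes past 8-fold in PH over MF, 94.5% were at least 2-fold lower in iHep than PH, 70.9% at least 8-fold and 17.3% at least 256-fold.

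Ugt2b34, an enzyme of the steroid- and bile-acid-conjugating UGT2B branch, had a level of -4.73 in MF, 1.97 in iHep and 5.06 in PH. It was 104-fold higher in iHep than in MF and 8.50-fold lower than in PH. Among the measured iHep over MF differences of all members this was the largest, and with normexp it was 30.6-fold. Ugt2a1, first known from olfactory epithelium, stood at -1.05 in MF, 1.45 in iHep and 5.33 in PH, which is 5.68-fold above MF and 14.7-fold below PH. Both genes were thus in between, and nearer PH than MF on the log scale for Ugt2b34 and nearer MF for Ugt2a1. Ugt2a1 shares exons with Ugt2a2 in the gene models, and which of them its probe reads was not tested.

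The other 6 UGT2B genes lay at 2.08 or above in PH and at -4.97 or below in iHep. Ugt2b5 reached 4.40 in PH, Ugt2b36 4.33, Ugt2b1 3.80 and Ugt2b35 2.08, and none of them was well above background in MF or iHep. Their levels in iHep were at least 3374-fold, 3228-fold, 2237-fold and 679-fold below PH in that order, and with normexp between 167-fold and 1102-fold below. Ugt2b38 at 4.35 and Ugt2b37 at 3.48 in PH were measured in iHep at -6.87 and -4.97, 2386-fold and 351-fold below PH. Ugt2b37 was at least 2.52-fold above MF, with no fold under normexp, while the iHep reading of Ugt2b38 lay under the lowest measurable level of the MF array and gives no fold. Even the nearest of these 6 to PH, Ugt2b37, was much farther from PH than Ugt2b34.

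Ugt2a3, which in liver and gut conjugates bile acids, went the other way from Ugt2a1. Its level was -5.23 in MF, -6.62 in iHep and 3.67 in PH, 2.63-fold below MF and 1256-fold below PH. The UGT3A enzymes take sugars other than glucuronic acid. Ugt3a2 stood at -5.47 in MF, -5.54 in iHep and 2.93 in PH, so iHep was 1.04-fold below MF and 353-fold below PH, or 3.19-fold and 198-fold below them with normexp. Ugt3a1 was measured in PH alone, at 2.37, at least 830-fold above iHep (218-fold with normexp).

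**Figure D3:**
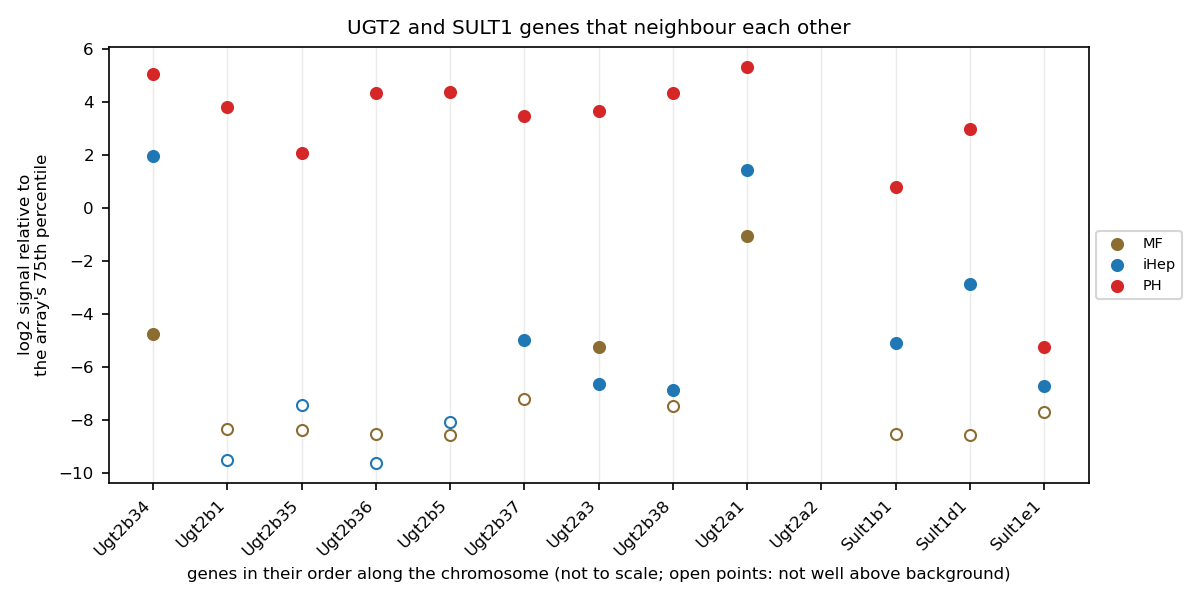
Levels (y axis, log2 signal relative to the array's 75th percentile) of the UGT2 and SULT1 genes in their order along mouse chromosome 5 (x axis, not to scale), with open points for readings not well above background and Ugt2a2 not analysed. PH points lie at 2.08 or above for all UGT2 genes, whereas the iHep points of Ugt2b34, at 1.97, and Ugt2a1, at 1.45, are the only UGT2 ones above 0.

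UGT1A enzymes each have their own first exon joined to last exons that all share. The 3 UGT1A genes measured were lower in iHep than in both other groups. Ugt1a1, Ugt1a2, Ugt1a5, Ugt1a7c, Ugt1a8 and Ugt1a9 had no probe named here. Ugt1a6b, a conjugator of planar phenols, had 4.96 in MF, 3.28 in iHep and 6.35 in PH, 3.20-fold below MF and 8.38-fold below PH. Its second probe read -3.37, -5.11 and -0.84, with differences of the same sign. Ugt1a10 was at -3.71 in MF, -6.19 in iHep and -1.64 in PH, 5.56-fold and 23.3-fold lower in iHep. Ugt1a6a was at -3.97, -6.66 and -4.10, 6.44-fold below MF and 5.89-fold below PH, and its MF and PH readings differed by 1.09-fold. Because the UGT1A transcripts share sequence, how far these 3 genes can be read apart was not tested.

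Among the phenol and amine sulfotransferases, Sult1a1, the principal phenol SULT of liver, was no higher in iHep than in MF. It read -4.71 in MF, -5.44 in iHep and 4.19 in PH, so iHep was 792-fold below PH and 1.66-fold below MF, the latter 3.09-fold with normexp. Its second probe put iHep 4.89-fold below MF and 1718-fold below PH. Sult1d1, a catecholamine SULT, and Sult1b1, a phenol and thyroid hormone SULT, lie next to each other at the end of the UGT2 genes. Sult1d1 was not above background in MF and stood at -2.85 in iHep and 2.99 in PH, at least 10.9-fold above MF and 57.4-fold below PH. Sult1b1 was likewise unread in MF, with -5.09 in iHep and 0.81 in PH, at least 2.32-fold above MF and 59.9-fold below PH. Both lay far from PH, but with normexp the iHep over MF difference was 1.48-fold for Sult1d1 and could not be formed for Sult1b1.

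Sult1e1, the oestrogen SULT in the same block, was weakly read. It was not read in MF, and stood at -6.70 in iHep and -5.24 in PH, 2.74-fold lower in iHep. That call was lost with normexp, at 1.99-fold, and with quantile normalization, at -0.31 on the log2 scale. Sult1c2, known from kidney and stomach, was the exception among liver-high members. It was not above background in MF and read -1.07 in iHep and -2.18 in PH. iHep was at least 37.6-fold above MF and 2.15-fold above PH, which with normexp became 4.33-fold and 1.99-fold. PH was at least 17.5-fold above MF but 2.17-fold with normexp, so its place among the liver-high members depended on the processing.

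SULT2 enzymes sulfate bile acids, sterols and steroid hormones. Sult2a8, a bile acid SULT of mouse liver, stood at -1.88 in MF, -0.03 in iHep and 4.20 in PH, 3.61-fold above MF and 18.8-fold below PH. Sult2a7 was measured in PH alone, at -1.65, at least 51.1-fold above iHep (17.0-fold with normexp). Sult2b1, the cholesterol SULT of skin and other epithelia, ran against PH: it read -3.41 in MF and -2.65 in iHep and was not above background in PH, so iHep was at least 18.9-fold higher than PH (4.39-fold with normexp) and 1.69-fold above MF.

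The 5 SULT2A genes on no array included Sult2a1, which with Sult3a1 is known as female-predominant in adult mouse liver. The labels give the animals as female. In PH, 8 of 9 measured genes of a list of female-biased liver genes were above background, with a summed level (log2 of the summed linear signals) of 5.12, and 13 of 13 of a male-biased list, summed to 8.09. The part of sex, age or probe design in the absent SULT2A and SULT3A readings was not tested.

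The remaining sulfotransferases were mixed. Sult4a1, a brain form with no settled substrate, was at -2.37 in MF, -5.16 in iHep and -4.09 in PH, 6.92-fold below MF and 2.10-fold below PH. The difference from PH was under 2-fold with normexp (1.92-fold), quantile normalization and the authors' values, where its log2 size came as near 0 as -0.03. Sult5a1 read -4.20, -3.13 and -0.29, 2.09-fold above MF and 7.17-fold below PH, and its iHep over MF difference turned to -0.15 on the log2 scale with normexp. Sult6b1 was measured in iHep alone, at -4.30, at least 4.01-fold above MF and at least 6.02-fold above PH; with normexp the former gave no fold and the latter was 1.86-fold. Sult6b2, at -7.02, was also read in iHep alone, under the lowest measurable level of both other arrays, so it has no fold.

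GST alpha enzymes reduce lipid peroxides and conjugate many drugs. Gsta2 stood at -4.46 in MF, -0.91 in iHep and 2.07 in PH, 11.7-fold above MF and 7.86-fold below PH, with 3.50-fold above MF under normexp. Gsta3, the main alpha form of mouse liver, read -0.60 in MF, -1.98 in iHep and 5.84 in PH, 2.60-fold below MF and 226-fold below PH. These 2 liver-high alpha genes thus differed in direction in iHep. Gsta4, which clears hydroxynonenal, lay at -2.35, -2.18 and -2.12, within 1.17-fold on all 3 arrays.

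The 7 GST mu genes, which lie in a row on mouse chromosome 3 with 0 other coding genes between, were all measured in all 3 groups. By the probes used none was 2-fold higher in iHep than in MF, 2 were lower, and 6 were lower than in PH. Among all genes 19.8% were higher and 23.3% lower than in MF, and 35.8% lower than in PH. Gstm1, the leading mu form of liver, had 2.81 in MF, 3.77 in iHep and 6.14 in PH, 1.95-fold above MF and 5.18-fold below PH. Gstm6 read -0.57, -1.21 and 3.71, and Gstm7 -4.46, -4.16 and -0.11, with iHep 30.2-fold and 16.5-fold below PH and within 1.55-fold and 1.24-fold of MF. Gstm4, at -2.24, -2.93 and -0.19, was 6.72-fold below PH. In iHep these 4 lay within 2-fold of MF by the probes used, but other probes put iHep below MF by 3.04-fold for Gstm6 and 2.77-fold for Gstm4. With the mean of probes Gstm4 and Gstm6 were past 2-fold lower, Gstm4 also with the authors' values, and Gstm1 was past 2-fold higher with quantile normalization and the authors' values, at up to 1.29 on the log2 scale.

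Gstm2 and Gstm5 had their highest level in MF. Gstm2 was at 5.17 in MF, 3.41 in iHep and 3.44 in PH, 3.38-fold below MF and 1.02-fold from PH. Gstm5 was at 1.17, -0.94 and 0.22, 4.31-fold below MF and 2.23-fold below PH. For Gstm3 the probes disagreed. One read -0.50 in MF, -1.08 in iHep and 1.45 in PH, 5.79-fold lower in iHep than PH, and the other was not above background in MF and read -5.45 in iHep and 4.22 in PH, 812-fold lower. The gap of 7.13 on the log2 scale is the largest between probes of 1 member, where the median gap was 0.87 over 13 genes. Mu genes are related in sequence, and cross-hybridisation was not tested.

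GST pi enzymes conjugate acrolein and similar electrophiles. Gstp1 read 3.91 in MF, 4.11 in iHep and 6.30 in PH, 4.58-fold below PH, and Gstp2 5.62, 4.79 and 6.47, 3.19-fold below PH, both within 1.77-fold of MF. Gstp3 was not above background in MF and stood at -5.10 in iHep and -3.63 in PH, at least 2.31-fold above MF and 2.76-fold below PH. With normexp the former gave no fold, and with quantile normalization or the authors' values the latter was under 2-fold, as near 0 as -0.47 on the log2 scale. The 3 genes are close copies and their signals may be shared.

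GST theta enzymes act on small halogenated compounds. Gstt1 read 0.15 in MF, 0.19 in iHep and 4.21 in PH, 1.03-fold from MF and 16.2-fold below PH. Gstt2, at -1.78, -3.76 and -0.24, was 3.96-fold below MF and 11.5-fold below PH. Gstt3, at 1.70, 0.22 and 2.63, was 2.80-fold below MF and 5.32-fold below PH. Gstt4 was read in iHep alone, at -7.11, with no fold. None of the 3 theta genes with a fold was 2-fold above MF, where 19.8% of all genes were.

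The kappa, omega and zeta classes held the lowest GST difference against MF, that of Gstk1, and the highest against PH, that of Gsto2. Gstk1, the GST of mitochondria and peroxisomes, had 1.11 in MF, -4.46 in iHep and 3.03 in PH, so iHep was 47.5-fold below MF and 180-fold below PH. It was the 1 member at least 8-fold lower in iHep than in MF, where 6.74% of all genes were. Gsto2, a dehydroascorbate reductase, ran the opposite way to the liver-high genes, with -1.24 in MF, -0.37 in iHep and -5.26 in PH, 29.5-fold above PH (14.2-fold with normexp) and 1.82-fold above MF. Gsto1, its neighbour in class, read 5.01, 3.50 and 2.65, 2.85-fold below MF and 1.80-fold above PH. Gstz1, which isomerises maleylacetoacetate in tyrosine breakdown, read 1.76 in MF, 1.78 in iHep and 5.52 in PH, 1.02-fold from MF and 13.4-fold below PH.

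**Figure D4:**
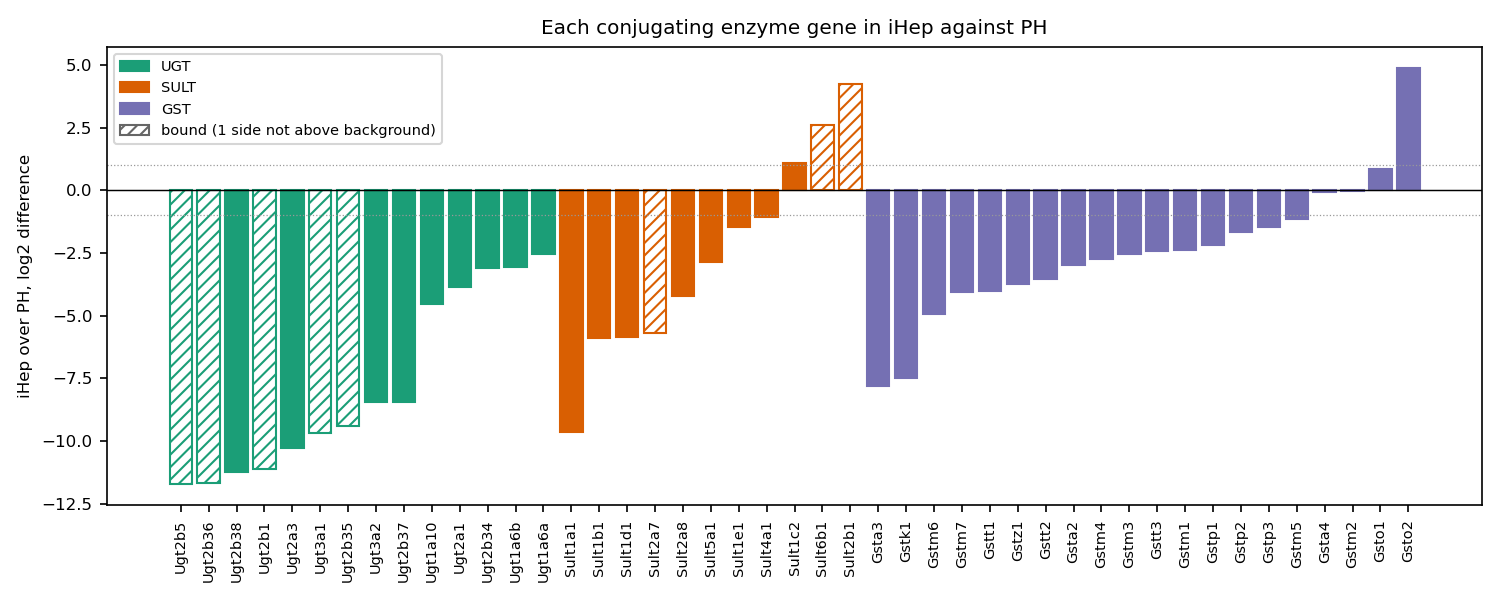
Log2 difference of iHep over PH (y axis) for each member with a fold, ordered within UGT, SULT and GST (x axis), with hatched bars for bounds and dotted lines at 2-fold. All 14 UGT bars point down, and the bars up past 2-fold are Sult1c2, Sult6b1, Sult2b1 and Gsto2.

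Promoters of 4 members outside UGT2B are set out because they mark the ends of the iHep against PH comparison. Sult1c2 and Gstm1 were the SULT and GST genes nearest to PH among those past 8-fold in PH over MF, and Gsto2 and Sult2b1 were at least 8-fold above PH. Each is the 100 bases before an annotated start (RefSeq, GRCm38.p6, 5′ to 3′), for Gsto2 and Sult2b1 1 of 2 starts, and capitals mark a TATA box.
Sult1c2 (chr17:53845959-53846058, minus strand): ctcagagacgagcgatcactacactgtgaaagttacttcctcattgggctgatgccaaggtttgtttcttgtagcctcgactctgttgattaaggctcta
Gstm1, nearer start (chr3:108017819-108017918, minus strand): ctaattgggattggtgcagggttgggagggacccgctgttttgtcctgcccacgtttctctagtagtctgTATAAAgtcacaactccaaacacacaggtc
Gsto2 (chr19:47865445-47865544, plus strand): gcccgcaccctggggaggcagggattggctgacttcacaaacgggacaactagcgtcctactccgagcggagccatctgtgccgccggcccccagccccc
Sult2b1 (chr7:45759613-45759712, minus strand): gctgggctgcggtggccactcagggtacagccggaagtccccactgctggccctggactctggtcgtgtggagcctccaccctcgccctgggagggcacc
The bases G and C made up 69% and 68% at the 2 starts of Gsto2, 71% and 56% at those of Sult2b1, 58% and 50% at those of Gstm1, 46% for Sult1c2 and 38% for Ugt2b34. The TATA box TATAAA lay 30 to 25 bases before the start of Gstm1, and either strand of it was found in 12.4% of all promoters. Which start the cells used was not measured.

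Over 58 promoters of 47 member genes in the RefSeq table, the antioxidant response element bound by NRF2 (TGACNNNGC) was found within 250 bases before the start in 3, those of Gsta3, Gstm5 and Gstm7, or 5.17% against 10.2% of all 32851 promoters. The xenobiotic response element bound by AhR (TTGCGTG) was found in Sult1d1 alone, 1.72% against 0.925% of all promoters, and the HNF4 site (CAAAGTCCA) in 0 against 0.384%. The TATA box TATAAA was found in 11, 19.0% against 12.4%. Several members are copies of each other, so their promoters are not independent, and both strands were searched in every case.

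The genes that supply the donors and remove the products were read from lists. Beside the list counts of higher and lower genes below stand the shares of all genes. In iHep over MF 19.8% were higher and 23.3% lower, and in iHep over PH 23.2% and 35.8%. Of 6 genes for UDP-glucuronic acid, none was 2-fold higher in iHep than MF and 2 were lower, and 3 were lower and 1 higher than in PH. Ugp2, which makes UDP-glucose, was 2.19-fold below MF and 5.01-fold below PH. The sugar carriers Slc35d1 and Slc35d2 were 8.71-fold and 10.6-fold below PH and within 1.33-fold of MF. Gusb, the lysosomal beta-glucuronidase, was 2.0-fold below MF and 2.17-fold above PH.

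Of 9 measured genes of the sulfate donor list 2 were lower than in MF and 0 higher, and 3 were lower and 4 higher than in PH. Papss2, the PAPS synthase that dominates in liver, stood at 1.42 in MF, -3.31 in iHep and 3.95 in PH, 26.5-fold below MF and 153-fold below PH. Slc26a1, a sulfate carrier, was 165-fold below PH and 1.03-fold from MF, and Arsb, a lysosomal sulfatase, was 2.50-fold below MF.

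Of 13 genes for glutathione synthesis and mercapturate steps, 4 were higher and 5 lower in iHep than MF, and 4 were higher and 6 lower than in PH. Slc7a11, the cystine importer, was 12.4-fold above MF and at least 45.4-fold above PH. Ggt5, a gamma-glutamyl transferase, was at least 265-fold below MF, and Oplah, the oxoprolinase, was 7.77-fold below MF and 34.2-fold below PH. Among 8 membrane-bound and outlying glutathione transferases 3 were higher and 2 lower than MF. Mgst2 was 6.64-fold above MF and 18.4-fold above PH, and Alox5ap, a leukotriene pathway protein of white blood cells, was 35.4-fold below MF and 16.6-fold below PH.

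Other conjugating enzymes ran with the UGT family: of 15, 14 were lower in iHep than PH and 0 higher, and 3 were higher and 5 lower than in MF. Nat8, which acetylates cysteine conjugates, was 7.20-fold above MF and 7.28-fold below PH. Inmt, an amine methyltransferase, was 10.7-fold below MF and 2791-fold below PH, and Acsm1, an acyl-CoA synthetase of glycine conjugation, was 1634-fold below PH. Of 10 efflux pumps, 3 were higher and 0 lower than in MF. Abcc4 and Abcb1b were 3.24-fold and 4.11-fold above MF and 3.93-fold and 8.62-fold above PH, while Abcb11, the bile salt pump, was 2136-fold and Abcc6 at least 2227-fold below PH.

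Of 22 sensors and liver factors 7 were higher and 3 lower in iHep than MF, and 16 were lower and 0 higher than in PH. Hnf4a stood at -5.62 in MF, 1.04 in iHep and 6.0 in PH, 101-fold above MF and 31-fold below PH. Cebpa was 18.4-fold below MF and 166-fold below PH, and Foxa3 120-fold below PH. Whether any of these readings includes transcript of the virus was not tested.

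Target genes of the sensors outside the 3 families did not share a direction. Of 20 NRF2 targets 4 were higher and 6 lower than in MF, and 5 higher and 7 lower than in PH. These counts lie near the shares of all genes, 19.8% and 23.3% against MF and 23.2% and 35.8% against PH. Nqo1, the quinone reductase, was 8.40-fold below MF and Cat, catalase, 28.5-fold below PH. Of 7 AhR targets 2 were higher and 3 lower than MF. Cyp1a1 was at least 23.8-fold above MF, Cyp1b1 was 1443-fold below MF and Cyp1a2 at least 1739-fold below PH.

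Marker lists of several cell types were set beside these results. The hepatocyte list was above background in 12 of 12 genes in PH, 9 in iHep and 5 in MF, with summed levels of 9.41, 2.59 and 2.88. Alb was at 6.67 in PH and -4.75 in iHep. PH also read 9 of 9 exocrine pancreas genes, summed to 8.76 against -0.09 in iHep and -0.82 in MF, 7 of 7 endothelial genes (6.09) and 9 of 9 macrophage genes (6.54). Macrophage genes summed to 6.35 in MF and -0.11 in iHep. Erythroid genes were above background in 4 of 5 in PH, summed to 5.65, and in 2 of 5 in iHep and in MF, summed to -2.59 and -2.25. Fibroblast genes were read in 10 of 10 in MF, 9 in iHep and 10 in PH, with sums of 9.26, 5.75 and 6.39.

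Lists for other epithelia that use these enzymes were read as well. Enterocyte genes were above background in 4 of 9 in MF, 7 in iHep and 7 in PH, summed to -1.68, 1.21 and 1.92. Of 7 compared, 3 were higher and 3 lower in iHep than PH. Vil1 was at 0.32 in iHep and -4.61 in PH, while Fabp2 was 53.0-fold lower in iHep than PH. Alpi and Cdx2 were on no array. Kidney proximal tubule genes were read in 6, 7 and 7 of 8, summed to -0.25, 0.09 and 3.15. Cholangiocyte genes were read in 6, 7 and 8 of 8, summed to 3.77, 4.81 and 5.92. The part of these other cells in the levels of the conjugating enzymes was not tested.

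**Figure D5:**
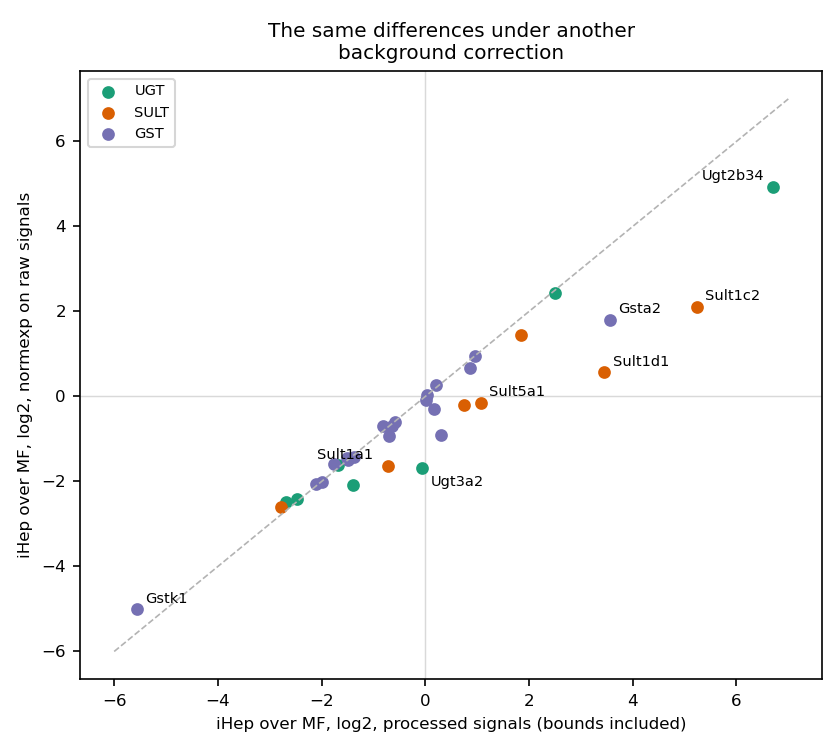
Log2 difference of iHep over MF for the members under normexp background correction on raw signals (y axis) against the processed signals used in the text (x axis, bounds included), coloured by family, with a dashed line of equality. Ugt2b34 went from 6.70 to 4.94 and Sult1c2 from 5.23 to 2.11, and Sult5a1 crossed 0, while Gstk1 stayed far below 0 on both axes.

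The calls for the 11 higher and 12 lower members of iHep over MF were followed over up to 8 other ways of processing at the same 2-fold threshold, as few as 5 where some gave no value. Wherever a value could be formed, 9 of the 11 and all 12 kept their call, and a 4-fold threshold leaves fewer calls. Several of these ways could hardly change a call. For a gene with 1 probe measured on both sides, probe means, both detection filters and the common floor give the same value or none. Median scaling moved 0 of 126 member differences by over 1.5-fold, while normexp moved 50 of 121. Kept calls are therefore not independent checks. Against PH, 34 of the 38 lower members and 2 of the 4 higher ones, Gsto2 and Sult2b1, kept theirs. With normexp, 5 of the 11 remained at least 2-fold above MF: Sult1d1 and Sult5a1 fell short of 2-fold, and Sult1b1, Sult6b1, Ugt2b37 and Gstp3 gave no fold. Against PH, Sult1c2 and Sult6b1 lost their higher call with normexp, and Sult1e1 and Sult4a1 their lower one. Of the 34 members higher in PH than in MF, 32 kept that call with normexp, Gstp3 fell to 1.04-fold and Sult1e1 gave no fold.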

How the data were processed

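Expression was measured in 3 pooled RNA samples (MF, iHep, PH), 1 one-colour array each, grouped by sample title. The deposited scanner files hold linear spot intensity values, made with Agilent Feature Extraction 11.0.1.1 per the file headers (the submitters' processing notes name 9.1), background-subtracted and detrended, with no normalization between arrays. The authors' value table, deposited as log2 values of unstated scale and centring, correlated with the scanner values at 0.994 to 0.998 and had column medians of 7.01, 7.00 and 7.05; its normalization stays unknown.

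Control spots and spots the software marked as outliers (190, 230 and 383 on MF, iHep and PH of 43020) were left out, no spot was saturated, and replicate spots were averaged, leaving 39181 probes read on all 3 arrays. Of these 27076 (69.1%) were named by unversioned accession through a RefSeq table of GRCm38.p6. The array design is annotated on mm9, so that table gave names and gene order alone. A gene is its probe with the highest mean level. It counts as above background where any of its probes is, and has a fold only through the probe used. The lowest levels of a probe well above background, used for bounds, were -6.30, -7.32 and -6.89. A bound sets the measured level against the higher of that floor and the dim reading, and none is given where it is under 1.

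Counts used fixed differences of 2-fold and 8-fold; no test is possible with 1 array per group, and precision is limited by there being 3 arrays. Every member well above background on an array is named, and of each list up to 2 genes with the largest difference in iHep over MF and 2 in iHep over PH; other genes named (those of the marker and target lists given as examples, and the other UGT2B promoters) were chosen after their values were seen. Members and lists were chosen with earlier results of these data known. Scripts were tested on simulated data. Alternatives were normexp (limma 3.58.1, R 4.3.3, offset 50, on median signals and backgrounds), quantile and median scaling, the authors' values, both detection filters, probe means, 4-fold and 1.5-fold thresholds, and a common floor for the 3 arrays. A gene of the liver factor list and a searched motif are not reported here.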

Additional observations from a re-analysis of the deposited data

How the results depend on the processing

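Over 18 family counts and 10 alternatives, 148 of 180 values stayed within 1.5 times the count reported and 32 moved. With normexp, iHep over MF had 2 SULT genes higher, 2 lower and 1 GST higher, iHep over PH had 1 SULT higher, the SULT median for iHep over MF reversed to -0.61 and Sult5a1 to -0.15. With quantile normalization, 2 GST were higher in iHep over PH. The authors' values cover fewer genes: iHep over MF had 1 UGT higher, 2 lower and 3 SULT higher, PH over MF 4 SULT higher, and iHep over PH 9 UGT lower, 3 SULT lower and 2 GST higher. With only probes above background on all 3 arrays, which drops genes silent on 1 array, iHep over MF had 2 SULT and 1 GST higher, PH over MF 6 UGT and 3 SULT higher and 1 SULT lower, and iHep over PH 7 UGT lower, 0 SULT higher and 4 lower. Without a filter on dim probes, SULT lower counted 7 for iHep over MF and 4 for PH over MF, and GST higher 2 for iHep over PH. With the mean of probes, 2 SULT were lower in iHep over MF. At 4-fold, iHep over MF had 2 UGT lower, 3 SULT higher, 1 GST higher and 2 lower, and PH over MF 1 SULT lower. At 1.5-fold, iHep over MF had 2 SULT lower and 4 GST higher, and iHep over PH 2 GST higher. Median scaling and a common floor moved none of these counts.

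Quantile normalization moved the median of all genes by -0.17 in PH over MF and by 0.39 in iHep over PH, the authors' values by -0.21 and 0.41. The share of higher among called genes, 45.9% in iHep over MF, became 27.7% with normexp. In PH over MF it was 54.8% and became 38.9% with normexp, 43.2% with quantile normalization and 42.0% with the authors' values. In iHep over PH it was 39.3% and became 55.0% with quantile normalization and 55.8% with the authors' values. Of 121 member differences, 50 moved by over 1.5-fold with normexp. The cause was not tested. No paired analysis was possible because each group has 1 array. Low signal over background limits the readings near the floors, most on the dim MF array.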
